A study of Rattus norvegicus with 4 samples.

Results

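Collagen chains were measured in retroperitoneal adipose tissue, a fat depot behind the abdominal cavity, of obese and lean male rats of the WNIN/Ob strain. The chains are the genes whose symbol has the form Col, a number, a and a number, with a table row that the platform annotation pairs with that single symbol. There were 25 such chains among 14506 genes. Col6a4 had 3 rows, of which the one with the highest mean over the 4 arrays was used, and every other chain had 1. RefSeq lists 44 rat collagen chains, and the remaining 19 are not analysed here, among them Col4a2, Col6a1, Col6a2 and Col6a3. The study compared 2 obese rats with 2 lean rats, all 4 months old, fed stock diet and given no treatment. The genotype behind the phenotypes is not given in the sources used here. Each rat gave 1 tissue sample and 1 Affymetrix Rat Gene ST array, and all values below are log2 intensities unless stated otherwise.

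Collagens are extracellular proteins in which 3 chains wind into a triple helix. Fibrillar collagens form the rope-like fibrils of connective tissue, and the network of type IV collagen underlies basement membranes, which surround every adipocyte and blood vessel. Type VI collagen forms beaded filaments, and FACIT collagens, which have interrupted helices, sit on the surface of fibrils. In fat, the matrix made by stromal cells and adipocytes gives mechanical support to lipid-filled cells, and its build-up is known as adipose fibrosis. Levels of different chains are not set against each other here, since each array row has its own probes.

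The arrays differed in ways that bear on the chains. The interquartile range of log2 intensity was 2.77 and 2.76 for obese rats 1 and 2, against 2.63 for lean rat 1 and 2.24 for lean rat 2. As a guide to background signal, 188 genes for olfactory or vomeronasal receptors were used, whose median was 2.77 and 2.85 in the obese rats, against 2.88 in lean rat 1 and 3.44 in lean rat 2. All 25 chains lay above the 95th percentile of these receptors on each array, by at least 0.84 and 0.57 in obese rats 1 and 2, 0.38 in lean rat 1 and 0.17 in lean rat 2. The weakest signals, such as those of Col9a1, Col10a1 and Col17a1, were therefore close to background in at least 1 rat. So was that of Col8a1 in lean rat 2.

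None of the 25 collagen chains passed limma's test of obese against lean fat at an adjusted p under 0.05, where 0.841% of the 14506 genes passed (0.772% higher and 0.0689% lower in obese fat). At an unadjusted p under 0.05 there were 2 chains, Col8a1 and Col17a1, both higher in obese fat, while 15.3% of all genes passed in either direction and 9.93% in the upward and 5.33% in the downward direction. The median difference, obese minus lean, was -0.17 over the chains and 0.00047 over all genes. The difference was below 0 for 19 chains, against 49.9% of all genes. Both obese rats lay below both lean rats for 10 chains, or 40%, where 21.3% of all genes did so. The reverse, with each obese rat higher than each lean rat, held for 4 chains, or 16%, where 26.4% of all genes did so. The differences ran from -0.43 (Col1a1) to 0.97 (Col8a1). The small number of arrays limits the precision: an exact two-sided permutation test of 2 rats against 2 cannot give a p below 0.333, and the 14 chains whose groups did not overlap reached that value. A chain that missed the threshold is not thereby shown to be alike in obese and lean fat, and the intervals below give the range its difference could take. In whole tissue, fewer cells of a type and less RNA per cell cannot be told apart.

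**Figure D1:**
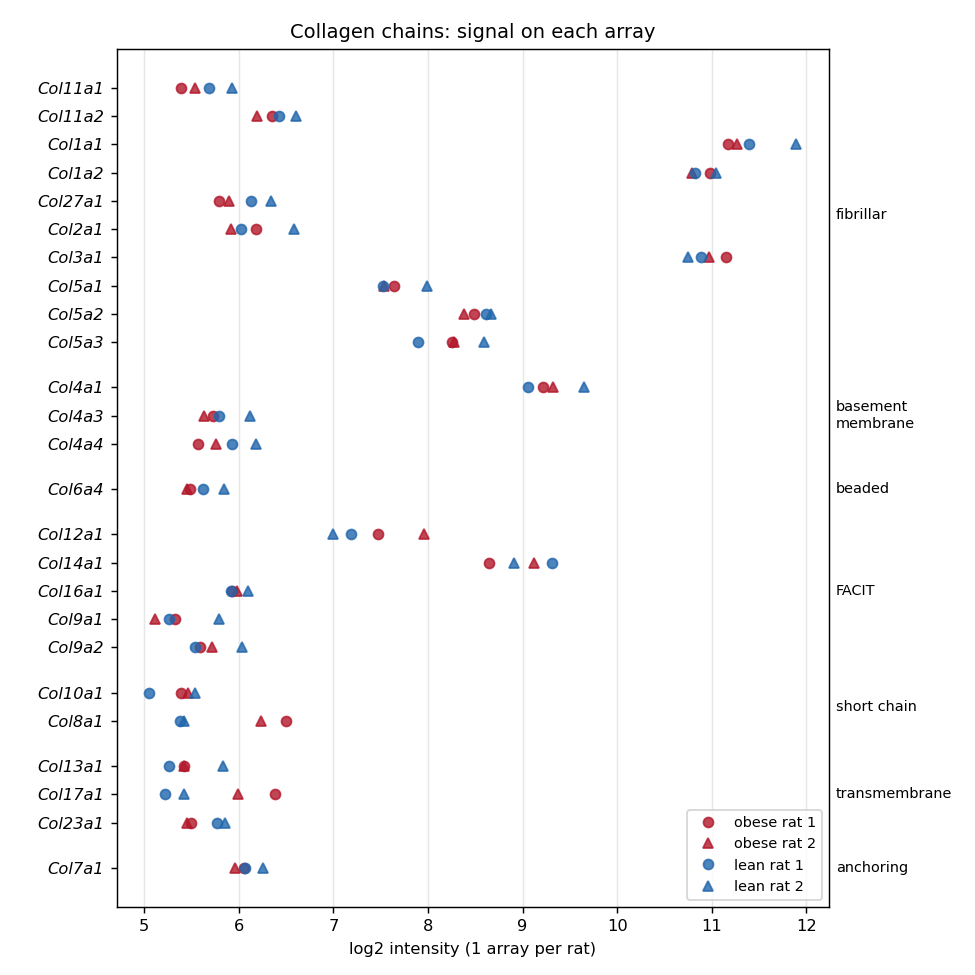
Log2 intensity (x axis) of each of the 25 collagen chains (rows, by class) on each array, with obese rats in red and lean rats in blue, circles for rat 1 and triangles for rat 2. The red points lie to the right of both blue points for Col3a1, Col12a1, Col8a1 and Col17a1, and the triangle of lean rat 2 is the rightmost point for 20 chains.

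Of 11 fibrillar chains, 10 were measured. None passed the test, 8 differences were below 0, and the class median was -0.23. Col1a1, the main chain of type I collagen, was at 11.17 and 11.27 in the obese rats, against 11.39 and 11.89 in the lean rats. Each obese rat was lower than each lean rat (-0.43 ± 0.32, SE, n = 2 per group, limma adjusted p = 0.567). In linear terms the lean signal was 1.34-fold the obese one, and the 95% interval of the difference ran from -1.17 to 0.32. Col1a2, which supplies the other chain of type I collagen, was at 10.98 and 10.79 in the obese rats, against 10.83 and 11.05 in the lean rats. These groups overlapped, and the difference was -0.05 ± 0.31 (adjusted p = 0.955). The log2 ratio of Col1a1 to Col1a2, centred on its mean over the arrays, was -0.33 and -0.05 in the obese rats, against 0.05 and 0.33 in the lean rats. That ratio was chosen after the values were seen and was not tested.

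Col3a1 encodes type III collagen, which forms thin fibrils together with type I. It was at 11.15 and 10.97 in the obese rats, against 10.89 and 10.75 in the lean rats. Among the fibrillar chains it alone had each obese rat higher than each lean rat, at 0.24 ± 0.30 (adjusted p = 0.754, interval -0.46 to 0.94). Type V collagen is a minor component that helps fibrils to start. Its chain Col5a1 was at 7.64 and 7.53 in the obese rats, against 7.52 and 7.99 in the lean rats, with a difference of -0.17 ± 0.30. Col5a2 was at 8.49 and 8.38 in the obese rats, against 8.61 and 8.66 in the lean rats, at -0.20 ± 0.29. Only the Col5a2 groups were separate, while lean rat 2 alone stood high for Col5a1. Col5a3, the least widespread type V chain, was at 8.25 and 8.27 in the obese rats, against 7.89 and 8.60 in the lean rats. The obese rats thus lay between the lean rats, and the difference was 0.016 ± 0.33.

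The remaining fibrillar chains are known mainly from cartilage. Col2a1, the chain of type II collagen, was at 6.18 and 5.92 in the obese rats, against 6.02 and 6.58 in the lean rats (-0.25 ± 0.29). Col11a2, a chain of type XI collagen, was at 6.35 and 6.19 in the obese rats, against 6.43 and 6.61 in the lean rats (-0.25 ± 0.25). Col27a1 was at 5.79 and 5.90 in the obese rats, against 6.13 and 6.34 in the lean rats (-0.39 ± 0.25). Both obese rats were lower for Col11a2 and Col27a1, whereas for Col2a1 obese rat 1 exceeded lean rat 1. Col11a1, the other type XI chain measured, was also lower in both obese rats (-0.34 ± 0.24). The adjusted p of these 4 chains lay between 0.484 (Col27a1) and 0.718 (Col2a1).

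Of the 6 basement membrane chains of type IV collagen, 3 were measured. All 3 differences were below 0 and none passed, with a median of -0.28. Col4a1, part of the ubiquitous type IV network, was at 9.21 and 9.32 in the obese rats, against 9.06 and 9.65 in the lean rats. The obese rats lay between the lean rats and the difference was -0.09 ± 0.33 (adjusted p = 0.925, interval -0.85 to 0.68). Col4a3 and Col4a4 encode chains of the specialised network best known from the kidney glomerulus. Col4a3 was at 5.73 and 5.63 in the obese rats, against 5.79 and 6.12 in the lean rats. Col4a4 was at 5.56 and 5.76 in the obese rats, against 5.93 and 6.18 in the lean rats. For both chains each obese rat was below each lean rat, at -0.28 ± 0.25 (adjusted p = 0.636) and -0.40 ± 0.25 (adjusted p = 0.481).

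Col4a3 and Col4a4 lie head to head and share the stretch between their starts, and their upstream sequences are shown because the data hold values for both neighbours, neither of which passed the test. They are the 250 bases before each start, from RefSeq in build GRCr8, at chr9:91323740-91323989 on the plus strand for Col4a3 and at chr9:91323578-91323827 on the minus strand for Col4a4. Capitals mark matches on either strand to the TATA box (searched as TATAAA), the CCAAT box (searched as CCAAT) and the GC box (searched as GGGCGG).
Col4a3: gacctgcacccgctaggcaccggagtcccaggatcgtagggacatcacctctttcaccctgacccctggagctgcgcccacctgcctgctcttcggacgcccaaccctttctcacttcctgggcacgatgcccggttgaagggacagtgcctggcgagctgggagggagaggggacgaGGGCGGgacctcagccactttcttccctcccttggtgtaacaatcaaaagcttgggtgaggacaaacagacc
Col4a4: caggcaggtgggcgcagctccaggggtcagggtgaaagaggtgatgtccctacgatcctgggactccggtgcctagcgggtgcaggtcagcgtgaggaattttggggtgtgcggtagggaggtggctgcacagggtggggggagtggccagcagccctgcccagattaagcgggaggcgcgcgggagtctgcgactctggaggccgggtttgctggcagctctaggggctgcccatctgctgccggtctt
The windows share 88 bases, read on opposite strands, and the starts are 412 bases apart. The Col4a3 window held 1 GC box and the Col4a4 window held none of the 3 motifs.

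The beaded filament class was represented by 1 of 6 chains, Col6a4, so its class value is that of a single gene, and the main type VI chains Col6a1, Col6a2 and Col6a3 are not analysed here. In human the counterpart of Col6a4 is broken and makes no such chain. The row used was at 5.49 and 5.45 in the obese rats, against 5.62 and 5.84 in the lean rats. Both obese rats were lower, at -0.26 ± 0.23 (adjusted p = 0.636). The other rows of Col6a4 had weaker signal, and their differences were -0.13 ± 0.26 and 0.05 ± 0.23, so the rows did not share a direction.

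Of 10 FACIT chains, 5 were measured, and the class held both directions. The median was -0.13, with 4 differences below 0 and none past the test. Col12a1, the chain of type XII collagen on the surface of type I fibrils, was at 7.47 and 7.96 in the obese rats, against 7.18 and 6.99 in the lean rats. Both obese rats were higher, with obese rat 2 highest, and the difference was 0.63 ± 0.30, or 1.54-fold (adjusted p = 0.366, interval -0.07 to 1.32). Col14a1, the related type XIV chain, was at 8.65 and 9.12 in the obese rats, against 9.31 and 8.91 in the lean rats. Its groups overlapped and the difference was -0.23 ± 0.33 (adjusted p = 0.784). The centred log2 ratio of Col12a1 to Col14a1 was 0.42 and 0.44 in the obese rats, against -0.53 and -0.32 in the lean rats. This pair, too, was chosen after its values were seen and was not tested. Col16a1 was at 5.93 and 5.98 in the obese rats, against 5.92 and 6.10 in the lean rats (-0.05 ± 0.24). The type IX chains Col9a1 and Col9a2, which coat cartilage fibrils, overlapped between the groups at -0.31 ± 0.27 and -0.13 ± 0.26.

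The largest differences were in chains outside these classes. Col8a1 encodes a short-chain collagen that forms networks beneath endothelium and in vessel walls. It was at 6.50 and 6.23 in the obese rats, against 5.38 and 5.42 in the lean rats. The obese rats were clearly apart from the lean rats, which differed from each other by 0.04. The difference was 0.97 ± 0.24 (SE, n = 2 per group), or 1.96-fold, with an interval of 0.41 to 1.53 and a limma adjusted p of 0.134. Leaving out 1 rat at a time gave 0.83 to 1.11, with an adjusted p between 0.061 (lean rat 1 left out) and 0.764 (obese rat 1 left out). Col10a1, a related short chain of growth plate cartilage, was at 5.39 and 5.46 in the obese rats, against 5.05 and 5.54 in the lean rats (0.13 ± 0.25).

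Col17a1 encodes a transmembrane collagen known from the hemidesmosomes that anchor skin epithelium. It was at 6.38 and 5.99 in the obese rats, against 5.22 and 5.42 in the lean rats. Both obese rats were higher, at 0.86 ± 0.26 or 1.82-fold (adjusted p = 0.195, interval 0.27 to 1.45), and leaving out 1 rat at a time gave 0.67 to 1.06. The other transmembrane chains did not share this direction. Col23a1 was lower in both obese rats (-0.34 ± 0.23), and the groups of Col13a1 overlapped (-0.13 ± 0.27). Col7a1, which forms the anchoring fibrils beneath skin epithelium, was at -0.15 ± 0.25, with both obese rats below both lean rats.

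The upstream 250 bases of Col8a1 and Col17a1 are shown because these chains had the largest differences. They were taken from RefSeq in build GRCr8, at chr11:56246532-56246781 on the plus strand for Col8a1 and at chr1:256518858-256519107 on the minus strand for Col17a1, with the same motifs in capitals.
Col8a1: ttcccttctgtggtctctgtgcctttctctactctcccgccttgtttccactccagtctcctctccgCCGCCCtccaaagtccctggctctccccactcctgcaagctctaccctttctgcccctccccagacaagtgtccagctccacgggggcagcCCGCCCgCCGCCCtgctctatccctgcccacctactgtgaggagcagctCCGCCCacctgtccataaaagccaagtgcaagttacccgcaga
Col17a1: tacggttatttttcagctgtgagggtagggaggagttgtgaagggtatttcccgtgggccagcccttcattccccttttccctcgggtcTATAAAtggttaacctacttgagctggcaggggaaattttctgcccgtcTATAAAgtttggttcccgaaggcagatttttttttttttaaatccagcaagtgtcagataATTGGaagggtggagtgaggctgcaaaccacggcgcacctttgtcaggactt
The Col8a1 window held 4 GC boxes and neither of the other motifs, whereas the Col17a1 window held 2 TATA boxes, 1 CCAAT box and no GC box. The pair therefore shared none of the 3 motifs. Among the 20 measured chains with a RefSeq promoter entry, a GC box was present upstream of 11 (55%), a CCAAT box of 7 (35%) and a TATA box of 4 (20%). Over 27457 genes with an entry these shares were 32.4%, 34.3% and 13.1%. A match is a description of the letters, not a binding site.

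**Figure D2:**
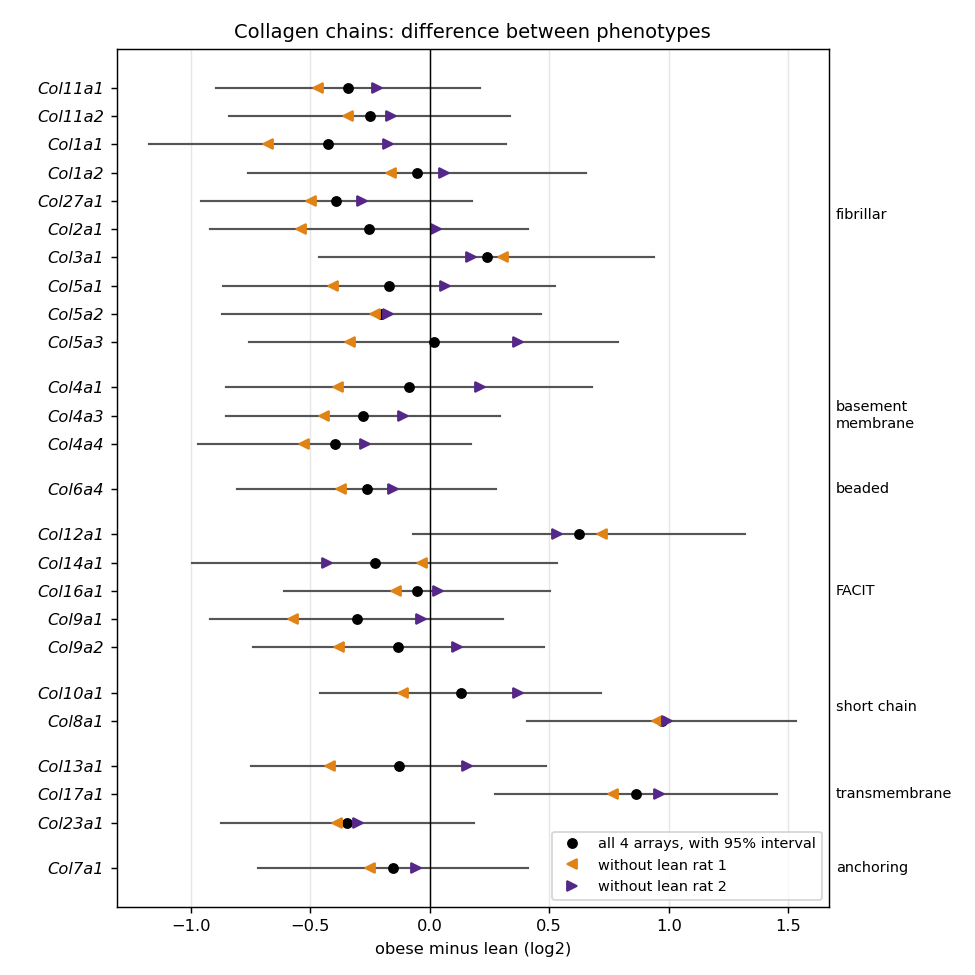
Difference between obese and lean rats on the log2 scale (x axis) for each collagen chain (rows, by class). Black points with lines are the estimate from 4 arrays with its 95% interval, and triangles are the estimates without lean rat 1 (orange) or without lean rat 2 (purple). The interval leaves 0 to its left only for Col8a1 and Col17a1, before adjustment over all genes.

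Set side by side, the 4 main classes had medians of -0.23 (fibrillar, 10 chains), -0.28 (basement membrane, 3 chains), -0.26 (beaded filament, 1 chain) and -0.13 (FACIT, 5 chains). No test between the classes was made, and with 1 to 3 chains in basement membrane and beaded filament collagens the class medians stand for few genes. Lean rat 2 bore most of the common downward shift. It was the highest array for 20 of 25 chains, against 38.2% of all genes, and for 9 of 10 fibrillar and all 3 measured basement membrane chains. The median deviation from the chain's mean was -0.05 and -0.10 in obese rats 1 and 2, against -0.06 in lean rat 1 and 0.24 in lean rat 2. Lean rat 1, however, had high skeletal muscle signal, with 7 markers summing to 26670.5, against 369 to 545 in the other rats. With 2 lean rats, which of them is the less typical cannot be told.

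Without lean rat 2, the difference was below 0 for 12 chains and the median over the chains was 0.028, against 43.95% of all genes below 0 and a median of 0.053 over all genes. Without lean rat 1, it was below 0 for 21 chains and the median was -0.37, against 53.1% of all genes below 0 and a median of -0.05 over all genes. The class medians without lean rat 2 were -0.07 (fibrillar), -0.11 (basement membrane), -0.15 (beaded filament) and 0.034 (FACIT), and without lean rat 1 they were -0.37, -0.44, -0.37 and -0.14. For Col1a1 the difference was -0.18 without lean rat 2 and -0.68 without lean rat 1. Quantile normalization, which gives each array the same distribution, left lean rat 2 the highest array for 19 chains, against 30.4% of all genes. With that setting 20 differences were below 0, against 44.6% of all genes. Centring each array on the median of all table rows left lean rat 2 the highest for 15 chains, against 27.3% of all genes. After centring, 16 differences were below 0, against 40.3% of all genes. The part of the narrower signal range of lean rat 2 in these values was not tested beyond these settings.

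**Figure D3:**
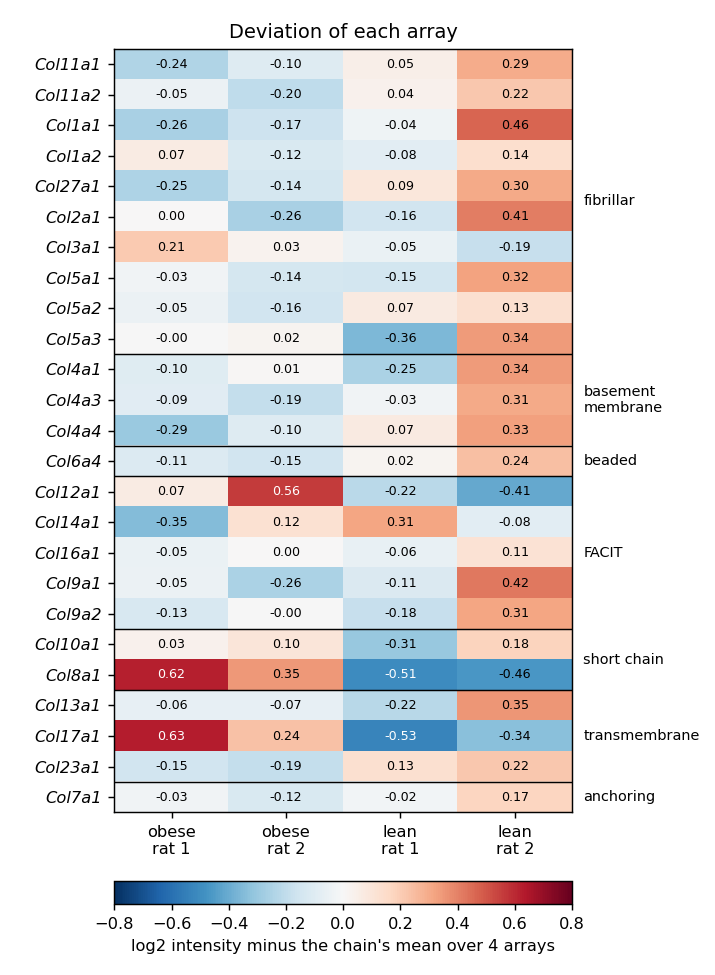
Log2 intensity on each array minus the chain's mean over the 4 arrays, for the obese and lean rats (columns) and the 25 chains (rows, by class), with red above and blue below the mean. The column of lean rat 2 is the highest of its row for 20 chains, and the obese columns are both the highest for Col3a1, Col12a1, Col8a1 and Col17a1.

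Genes that modify, export, crosslink and break down collagen, its receptors and regulators of fibrosis were counted as well. These lists, together called handling genes here, hold 86 genes, of which 78 were measured. None of the 78 passed at an adjusted p under 0.05, where 0.841% of all genes did. At an unadjusted p under 0.05 there were 18, of which 16 were higher in obese fat. Of all genes, 15.3% passed that unadjusted threshold, and 9.93% did so in the upward direction. Each obese rat was higher than each lean rat for 31 genes (39.7%) and lower for 13 (16.7%), and the median difference was 0.15. All genes gave 26.4%, 21.3% and a median of 0.00047.

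The enzymes that hydroxylate and glycosylate the chains inside the endoplasmic reticulum had a median of 0.36. For 9 of 14 (64.3%) the obese rats were both higher, where 26.4% of all genes were. Colgalt1, which adds galactose to hydroxylysine, was at 8.49 and 8.46 in the obese rats, against 7.33 and 7.70 in the lean rats. Plod1, a lysyl hydroxylase, was at 8.68 and 8.32 in the obese rats, against 7.497 and 7.64 in the lean rats. Their differences were 0.96 ± 0.30 (adjusted p = 0.210) and 0.93 ± 0.30 (adjusted p = 0.220). P4hb, the beta subunit of prolyl 4-hydroxylase, was at 0.91, P4ha1, a catalytic subunit of the same enzyme, at 0.82, and Plod2, the hydroxylase of the telopeptides, at 0.32. In the opposite direction, P3h2, a prolyl 3-hydroxylase, was at -0.77.

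Among 10 chaperones and export factors, for which the median was 0.10, Serpinh1 had the largest difference. It encodes the collagen chaperone Hsp47. Its signal was 10.995 and 10.88 in the obese rats, against 9.76 and 9.80 in the lean rats, a difference of 1.16 ± 0.30 or 2.23-fold (adjusted p = 0.143). The obese rats were well above the lean rats, each pair differing by little. Sec23a, a coat protein of the vesicles that leave the endoplasmic reticulum, was at 0.66, and Fkbp14, a folding enzyme, at 0.58. None of the 6 propeptide cleavage genes had both obese rats on top, where 26.4% of all genes did, and the median was 0.08. There Bmp1, the C-proteinase of fibrillar procollagens, was at 0.09, its enhancer Pcolce at 0.28, Adamts2, the N-proteinase, at 0.12, and Tll1, a relative of Bmp1, at -0.37.

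Of the 5 crosslinking enzymes none passed the test, and their median was 0.13. Lox, the lysyl oxidase, was at 7.57 and 7.89 in the obese rats, against 7.18 and 6.57 in the lean rats (0.85 ± 0.32, adjusted p = 0.274). Loxl1, which also acts on elastin, was at 8.21 and 8.24 in the obese rats, against 7.26 and 7.63 in the lean rats (0.78 ± 0.29, adjusted p = 0.273). The groups did not overlap for these enzymes, whereas Loxl4 was lower in both obese rats (-0.26). The remaining lysyl oxidase relatives, Loxl2 and Loxl3, were at 0.11 and 0.13.

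The breakdown and uptake list had a median of 0.28 over 18 genes. For 9 of them (50%) both obese rats were higher, where 26.4% of all genes were. Timp1, an inhibitor of metalloproteinases, was at 9.60 and 8.56 in the obese rats, against 6.50 and 7.28 in the lean rats, or 4.55-fold (2.18 ± 0.43, adjusted p = 0.073). The Timp1 difference was 2.70 without obese rat 2 and 2.57 without lean rat 2, fits that leave 1 rat in a group. Leaving out obese rat 1 or lean rat 1 instead made it smaller than with all 4 rats. The lysosomal collagenase Ctsk was at 8.37 and 8.15 in the obese rats, against 7.60 and 6.63 in the lean rats. Its difference was 1.14 ± 0.37 (limma adjusted p = 0.224). It was 1.62 without lean rat 1, but smaller than 1.14 without lean rat 2. Mrc1, a mannose receptor of macrophages that also binds collagen, was at 1.61 ± 0.36 (limma adjusted p = 0.099). The Mrc1 difference was 2.00 without obese rat 2, but smaller than 1.61 without obese rat 1. The gelatinase Mmp9 was at 0.95, the membrane collagenase Mmp14 at 0.10 and the collagen uptake receptor Mrc2 at 0.15, none of them past the test. Mrc1 is also one of the 7 macrophage markers, whose summed level was higher in both obese rats, and the part of macrophages in this list was not tested.

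The 11 receptors had a median of -0.27, with 8 differences below 0, where 49.9% of all genes lay below 0. The obese rats were both lower for 3 receptors (27.3%, against 21.3% of all genes) and both higher for 2 (18.2%, against 26.4% of all genes). No receptor had an unadjusted p under 0.05. Itga1, the integrin subunit for type IV collagen, was at -0.49, the discoidin receptor Ddr2 at -0.33, Itga10 at -0.41, the shared integrin subunit Itgb1 at 0.46, and Cd36, a fatty acid and collagen receptor, at 0.76. Among 14 fibrosis regulators with a median of 0.28, Tgfb1, the main profibrotic growth factor, was at 9.11 and 9.24 in the obese rats, against 7.99 and 8.30 in the lean rats. The obese rats were higher by a mean of 1.03 ± 0.30 (adjusted p = 0.189). Its receptor Tgfbr1 was at 0.93 and Ccn2, a gene that responds to it, at 0.73, neither past the test. The list held both directions. Both obese rats were higher for 5 genes (35.7%, against 26.4% of all genes) and lower for 4 (28.6%, against 21.3%). The 4 lower ones were the growth factors Tgfb2 (-0.68) and Pdgfa (-0.54), the inhibitory signal protein Smad7 (-0.32) and the signal transducer Smad3 (-0.27), and none passed.

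**Figure D4:**
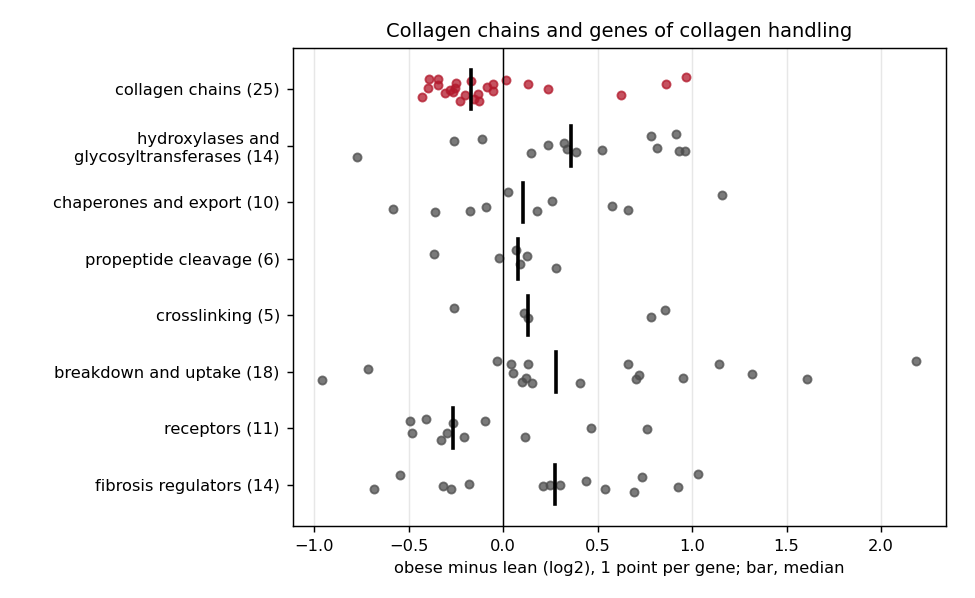
Difference between obese and lean rats on the log2 scale (x axis) for the 25 collagen chains (red) and for 7 lists of handling genes (grey). The lists include receptors and fibrosis regulators. There is 1 point per gene, with the number of genes in brackets and a bar at each median. The chains have a median of -0.17, while the hydroxylases and glycosyltransferases have one of 0.36 and the receptors one of -0.27.

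Markers of the cell types in the samples were measured beside the chains. The summed intensity of 7 adipocyte markers was 14098 and 15501 in the obese rats, against 12507 and 12498.5 in the lean rats. Of these 7, 3 were higher in both obese rats, where 26.4% of all genes were, and none passed the test. Cfd (-0.83) and Lipe (-0.03) had differences below 0, with overlapping groups. For 7 fibroblast and progenitor markers the sum was 4753 and 5172 in the obese rats, against 5487 and 5399 in the lean rats. The fibroblast markers did not move together: their median difference was -0.015 and none passed the test. Of the 7, 2 were higher in both obese rats and 2 lower in both, where 26.4% and 21.3% of all genes were. The surface protein Thy1 was at 1.35 (2.55-fold, adjusted p = 0.074) and the fibril-binding proteoglycan Lum at 0.73, while the bright matrix protein Dpt was at -0.67 and Dpp4 at -0.55. The lowest log2 intensity of any adipocyte marker was 8.17. The summed intensity of 7 macrophage markers was 10063 and 5891 in the obese rats, against 2635 and 2315 in the lean rats, with 6 of 7 markers higher in both obese rats, where 26.4% of all genes were, and 2 of 7 called, where 0.841% of all genes were. For 7 skeletal muscle markers it was 544 and 369 in the obese rats, against 26670.5 in lean rat 1 and 545 in lean rat 2. Without lean rat 1, the difference was 0.95 for Col8a1 and 0.77 for Col17a1. Endothelial markers summed to 1344 and 1455 in the obese rats, against 1920 and 1809 in the lean rats, with 4 of 7 lower in both obese rats, where 21.3% of all genes were. The endothelial receptor Tie1 was higher in both obese rats (0.82), and no endothelial marker passed. Mural and smooth muscle markers summed to 2537 and 2966 in the obese rats, against 6630 and 4278 in the lean rats. The sum followed bright markers, namely Acta2 and Myh11, which were highest in lean rat 1, and Rgs5, which was highest in lean rat 2. Of the 7, 3 were lower in both obese rats, where 21.3% of all genes were, and none passed the test. The pericyte markers did not share a direction. Pdgfrb (0.69) and Cspg4 (0.37) were higher in both obese rats, while Rgs5 was at -0.64 with overlapping groups. Mesothelial markers (5 of 7 measured) summed to 143 and 156 in the obese rats, against 634 and 216 in the lean rats. The high sum of lean rat 1 followed Krt19, at 8.53 there against 4.22 to 4.62 in the other rats. Of the 5, 4 were lower in both obese rats, where 21.3% of all genes were, and none passed the test. Schwann cell markers (4 of 7 measured) summed to 1490 and 1179 in the obese rats, against 1101 and 1376 in the lean rats. That sum followed the bright marker Pmp22 (0.17), while Sox10 (-0.28), Prx (-0.63) and Cdh19 (-1.02) had differences below 0. The median difference of the Schwann markers was -0.46, and none passed the test. Cartilage and bone markers (6 of 7 measured) summed to 172 and 166 in the obese rats, against 162 and 230 in the lean rats. Not all markers stood clear of background. Cdh19 (3.14 to 4.49) and the bone marker Ibsp (3.09 to 3.87) lay below the 95th percentile of the receptors on every array. Others did so in some rats, among them Krt19 in all but lean rat 1 and Matn3 in all but obese rat 1. The percentile was 5.24 in lean rat 2, against 4.48 to 4.68 in the other rats. The part of background in the higher cartilage and bone sum of lean rat 2 was not tested. The part of these cell types in the differences of single chains was not tested.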

How the data were processed

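Trizol was used to extract total RNA from 500 mg of adipose tissue, of which 100 ng was amplified and labelled, per the labels' protocols. The table holds linear intensity values as deposited, 1 per row and array. The submitters' processing notes name RMA, with its version and probe-set level not given in the sources used here. RMA usually ends in quantile normalization, but the deposited arrays do not share 1 distribution: the interquartile range of log2 intensity was 2.24 to 2.77 and the median intensity 39.9 to 44.5. What was done to the values after or in place of that step is not known here.

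Log2 was taken of the intensities without a pseudocount. Of 29214 rows, 15310 had 1 gene symbol, 323 several and 13581 none, and for each of 14506 genes the row with the highest mean was kept. The fit was made over all genes with limma 3.58.1 in R 4.3.3 (lmFit, and eBayes with an intensity trend), as obese minus lean, with Benjamini-Hochberg adjustment and a threshold of 0.05. Each rat is a separate animal. The procedure was tested on simulated data. Sequences are from RefSeq (GRCr8), and all 25 chains matched by gene ID.

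The members, lists and tests were chosen with earlier results of these data known. By rule, values on every array are given for chains of the 4 main classes with a mean at or above the median gene, and for chains of the other classes that also had an unadjusted p under 0.05. Of each handling list, the 3 genes with the smallest p are named beside a fixed set. Genes chosen after their values were seen are Col4a3, Col6a4, Col10a1, Col17a1, P3h2, Tmem38b, Ctss, Mmp16, Loxl2, Loxl3, Tgfb2, Pdgfa, Smad3, Smad7 and the single marker genes, as were the receptor background and the chain ratios. Col11a1, Col9a1, Col9a2, Col13a1, Col23a1 and Col7a1 also fell outside the rule and are named with their difference alone. Other settings tried were a block for the rat number, quantile normalization, centring on the median, no intensity trend, leaving out the dimmest 25% of genes, averaging the rows of a gene, and leaving out each rat.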

Additional observations from a re-analysis of the deposited data

How the results depend on the processing

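No collagen chain was called by limma under any of the 11 alternatives, and the smallest adjusted p was 0.061 (Col8a1 without lean rat 1), while 2 chains had an unadjusted p under 0.05 in the main analysis. Of the 25 chains, 15 kept the sign of their difference throughout, and Col1a2, Col2a1, Col5a1, Col5a3, Col4a1, Col14a1, Col16a1, Col9a2, Col10a1 and Col13a1 did not; the cause was not tested. Over all genes 122 were called (91.8% higher), against 75 with quantile normalization. Leaving out 1 rat at a time gave 268 to 1081, and the share higher was 55.2% and 66.0% when obese rat 1 or 2 was left out, and 61.4% and 40.9% when lean rat 1 or 2 was left out. The median over the chains was -0.37 to 0.028 in those fits, where the lone rat is assumed to vary like the other group. Of the handling genes, 0 were called in the main analysis (18 at an unadjusted p under 0.05) and 0 to 4 with 1 rat left out. Tmem38b, an ion channel of the endoplasmic reticulum, was at -0.09, at 1.02 without lean rat 1 (adjusted p = 0.043) and at -1.20 without lean rat 2 (adjusted p = 0.045). Ctss was at 1.87 without obese rat 2, and Mmp16 was at -1.39 and P3h2 at -1.25 without lean rat 2. Each of these differences was smaller in size when the other rat of the same group was left out. Centring on the median of the named genes, chosen after seeing the data, moved the median over all genes to -0.07, and centring on all rows moved it to 0.099. The rat numbers name separate animals, and the deviations of same-numbered rats correlated at 0.02 across genes. With the replicate block 327 genes were called (77.7% higher), none of them collagen chains and 2 of them handling genes (Timp1 and Mrc1). The number of arrays, and for dim chains the distance from background, limit these values.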
